A study of Mus musculus with 6 samples.

Results

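The 9 genes described here encode SLC22 transporters of organic anions, organic cations and urate: Slc22a2, Slc22a4, Slc22a6, Slc22a7, Slc22a8, Slc22a12, Slc22a13, Slc22a19 and Slc22a30. They were found by exact gene name among the transcript probes of the array files, and all of their probes were taken, which gave 12 of 56605 distinct probes and 9 of 36944 gene names. Of these genes, 7 had 1 probe each, Slc22a19 had 2 and Slc22a30 had 3. A further 16 Slc22 genes were on the array.

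SLC22 proteins sit in the plasma membrane and carry small charged molecules that the kidney clears or retains. In the proximal tubule, basolateral members take organic anions or cations up from the blood, the anion carriers in exchange for dicarboxylates, and apical members exchange urate and other anions with the tubular fluid. Drugs, toxins, steroid conjugates and urate are among their substrates, and in rodents several members differ between male and female kidneys.

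The arrays measured RNA of the renal cortex of male C57BL/6 mice, 3 samples from mice lacking the receptor for the complement fragment C3a (C3aR-/-) and 3 from wild-type (WT) mice. Both genotypes belonged to the control arm: the mice were 8 weeks old when a chow with 10% of calories from fat began, had 4 weeks of it before vehicle injections over 3 days, and were killed 20 weeks after induction. The comparison therefore asks how the loss of the receptor related to these transporters without induced diabetes, and the diabetic arm was not analysed here. The labels do not state that the samples came from separate animals, so the spread behind the p-values may be technical, nor do they say which part of C3ar1 was deleted or whether the deletion was in all cells.

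Each array had 59305 transcript spots, of which 33530 to 35147 were well above background, and 0 were saturated. All WT arrays lay on 1 slide and all C3aR-/- arrays on another, so slide and genotype cannot be told apart in any difference below. C3aR-/- replicate 1 stood apart, with 145 non-uniform spots against 2 to 8 on the other arrays and its second principal component score was 37.2, while those of the other C3aR-/- arrays were -27.0 and -25.4. The single C3ar1 probe was well above background on 1 array, WT replicate 1, and so gave no check of the genotype labels. All 15 proximal tubule markers were tested, but so were all 12 markers of the thick limb, distal tubule and collecting duct. Passing the filter therefore does not tell cortex from other parts of the kidney. Levels are log2 processed signals relative to the array's 75th percentile (log2 level), and a change is the C3aR-/- mean minus the WT mean. Levels of different probes are not compared, because probes differ in brightness for reasons unrelated to abundance.

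Of the 12 probes, 11 were tested, because every array of 1 genotype or of both put them well above background, and all 9 genes had a tested probe. With limma and a Benjamini-Hochberg adjusted p under 0.05 over all 30931 tested probes, 0 of the 11 changed, against 11.7% of all tested probes (6.18% higher and 5.49% lower in C3aR-/-). Adjusted p-values of the 11 lay between 0.0968 and 0.854. At an unadjusted limma p under 0.05, 1 probe was higher and 1 lower, against 31.9% of all tested probes in either direction. The changes were positive for 7 probes and negative for 4, with a median log2 change of 0.08 beside 0.03 for all tested probes. The genotypes did not overlap for 4 of the 11, against 39.6% of all tested probes. The count of changed probes stayed at 0 under each of the 17 other settings that were run, including the one without C3aR-/- replicate 1.

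Some of the probe sequences bear on what can be told apart, and they are shown for that reason. Slc22a30 and Slc22a28 are relatives on the same chromosome, and a probe of each aligned over 53 bases with 50 identical (94.3%). The stretches below hold all 3 differences, 5′ to 3′, with identical bases in capitals and differing bases in lower case. They are bases 5 to 34 of Slc22a30 probe 2 (mm9 chr19:8410155-8410214, minus strand) and bases 12 to 41 of a Slc22a28 probe (mm9 chr19:8136749-8136808, minus strand).
Slc22a30 probe 2: TtTgTTCAGGACATGGTGACAATTTTCtCA
Slc22a28: TgTaTTCAGGACATGGTGACAATTTTCcCA
RNA of either gene could bind either probe, and how much did so was not tested. The other 2 probes shown are the ones by which Slc22a30 and Slc22a19 stand as their brightest. Slc22a30 probe 1 (mm9 chr19:8418998-8419057, minus strand) is also listed against a Slc22a28 transcript in the array files, and both Slc22a28 probes are also listed against Slc22a30. Slc22a19 probe 1 is 60 bases long and spans 824 bases of the genome (mm9 chr19:7757409-7758232, minus strand), so it crosses a splice junction and reads spliced RNA.
Slc22a30 probe 1: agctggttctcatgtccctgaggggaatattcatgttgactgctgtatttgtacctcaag
Slc22a19 probe 1: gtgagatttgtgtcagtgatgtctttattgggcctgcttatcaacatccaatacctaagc

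Promoters were read from RefSeq (GRCm38.p6) as the 250 bases before each start, and 8 of the 9 genes had an entry, all but Slc22a7. Motifs of factors known in the proximal tubule or in sex-dependent transcription were searched on both strands. The HNF1 core GTTAAT lay in 2 of the 8, Slc22a6 at 56 bases and Slc22a8 at 81 bases before the start, against 6.43% of 32851 promoters. The core TTCNNNGAA, shared by STAT factors and BCL6, lay in 1 of the 8, Slc22a19, at 224 and at 123 bases before the start, against 7.02% of promoters. The HNF4 core CAAAGTC was in 0 of the 8, against 3.84%. No match overlapped another. A match is a description and not a binding site, and the absence of a match says only that the letters are not in this window. The 3 promoters with a match follow, 5′ to 3′ on the gene's strand, with the matches in capitals.
Slc22a6 promoter, chr19:8617746-8617995, plus strand: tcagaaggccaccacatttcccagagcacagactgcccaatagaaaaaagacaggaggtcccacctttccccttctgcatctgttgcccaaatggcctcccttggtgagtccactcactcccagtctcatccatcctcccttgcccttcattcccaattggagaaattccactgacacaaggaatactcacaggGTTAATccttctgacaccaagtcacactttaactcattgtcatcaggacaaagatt
Slc22a8 promoter, chr19:8592932-8593181, plus strand: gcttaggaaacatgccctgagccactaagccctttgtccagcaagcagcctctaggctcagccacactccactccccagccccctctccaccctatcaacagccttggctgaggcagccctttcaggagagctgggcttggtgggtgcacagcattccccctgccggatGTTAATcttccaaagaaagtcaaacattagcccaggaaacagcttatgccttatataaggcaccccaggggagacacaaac
Slc22a19 promoter, chr19:7711311-7711560, minus strand: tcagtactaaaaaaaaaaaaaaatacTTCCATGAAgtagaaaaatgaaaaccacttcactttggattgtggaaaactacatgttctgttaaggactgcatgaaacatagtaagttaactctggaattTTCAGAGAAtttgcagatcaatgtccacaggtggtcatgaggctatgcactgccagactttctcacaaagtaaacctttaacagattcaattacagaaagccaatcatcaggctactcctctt

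The basolateral organic anion exchangers differed little between the genotypes. Slc22a6 encodes OAT1, the classical carrier of para-aminohippurate, and its probe lies at mm9 chr19:8700868-8700927. Its log2 levels were 7.10, 7.12 and 7.23 on the C3aR-/- arrays, against 7.07, 7.16 and 6.92 on the WT arrays. The genotypes overlapped, since WT replicate 2 lay above C3aR-/- replicates 1 and 2. The log2 change was 0.10 (SE 0.09, 95% interval -0.11 to 0.31), which is a fold of 1.07, with a limma adjusted p of 0.449. It was 0.04 without WT replicate 3, 0.06 without C3aR-/- replicate 3 and 0.16 without WT replicate 2, and with quantile normalization its sign turned (-0.05). Slc22a8 encodes OAT3, which carries larger and more varied anions, and its probe lies close by (mm9 chr19:8684762-8684821). It had log2 levels of 4.58, 4.57 and 4.52 in C3aR-/- cortex, against 4.63, 4.31 and 4.49 in WT cortex. All C3aR-/- values lay within the range of the WT values. Its log2 change of 0.08 (SE 0.09) had a 95% interval of -0.15 to 0.31, or a fold of 0.903 to 1.24, and a limma adjusted p of 0.591. It was -0.00 without WT replicate 2 and 0.15 without WT replicate 1. The values are compatible with any change inside these intervals, which are as wide as 3 arrays a genotype left them.

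Neither organic cation carrier was called, with a small positive change for Slc22a2 and a negative one for Slc22a4. Slc22a2 encodes OCT2, the basolateral organic cation transporter, and its probe lies at mm9 chr17:12821245-12821304. Its log2 levels were 5.13, 5.08 and 5.12 on the C3aR-/- arrays, against 5.03, 5.03 and 5.05 on the WT arrays. The genotypes did not overlap, and each was tight, with a highest-to-lowest fold of 1.03 in C3aR-/- and 1.02 in WT. The pooled SD of this probe was lower than that of nearly all others, at percentile 0.317 of all tested probes. The log2 change was 0.07 (SE 0.06, 95% interval -0.07 to 0.21), a fold of 1.05, with a limma adjusted p of 0.429. Slc22a4 encodes OCTN1, a carrier of ergothioneine and organic cations, and its probe lies at mm9 chr11:53796841-53796900. It had log2 levels of 1.68, 1.86 and 1.92 in C3aR-/- cortex, against 1.91, 2.20 and 2.08 in WT cortex. The genotypes overlapped only at their edge, where C3aR-/- replicate 3 lay just above WT replicate 1. The log2 change of -0.24 (SE 0.10, 95% interval -0.50 to 0.01) is a fold of 0.845, with a limma adjusted p of 0.172.

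**Figure D1:**
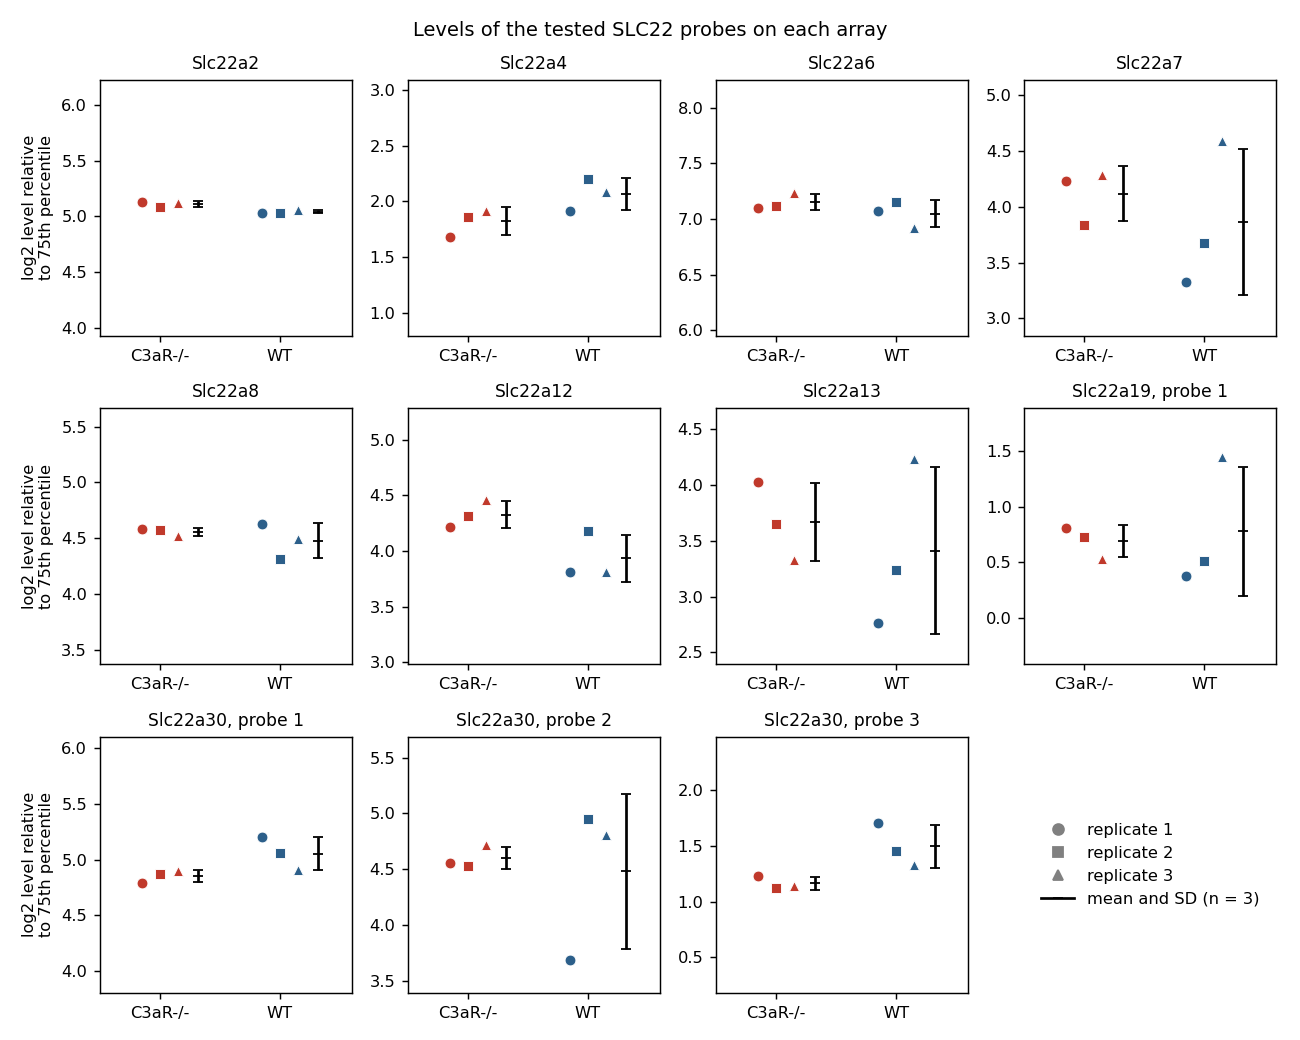
Each panel shows 1 tested probe, with the log2 level relative to the array's 75th percentile on the vertical axis, every panel spanning the same number of log2 units, the C3aR-/- arrays in red and the WT arrays in blue, and the mean and SD (n = 3) in black. WT arrays are widely spread for Slc22a7, Slc22a13, Slc22a19 probe 1 and Slc22a30 probe 2, while Slc22a2 is nearly level across all 6 arrays.

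The urate carrier Slc22a12 showed the largest difference among the members, which did not pass the test. It encodes URAT1, the apical urate-anion exchanger, and its probe lies at mm9 chr19:6536084-6536143. Its log2 levels were 4.21, 4.32 and 4.45 on the C3aR-/- arrays, against 3.81, 4.18 and 3.82 on the WT arrays. The genotypes did not overlap, but WT replicate 2 lay close to C3aR-/- replicate 1. The means were 4.33 ± 0.12 in C3aR-/- and 3.94 ± 0.21 in WT (SD, n = 3 each). The log2 change was 0.39 (SE 0.13, 95% interval 0.08 to 0.70), a fold of 1.31 (1.06 to 1.62), with an unadjusted limma p of 0.0209 and an adjusted p of 0.0968. Leaving out 1 array at a time gave log2 changes of 0.33 to 0.51 with limma adjusted p-values of 0.0636 to 0.237, and over all 17 other settings the lowest adjusted p was 0.0522.

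Slc22a13 encodes OAT10, an apical exchanger of urate and nicotinate in human and rat, and its probe lies at mm9 chr9:119102121-119102180. Its log2 levels were 4.02, 3.65 and 3.33 on the C3aR-/- arrays, against 2.76, 3.24 and 4.24 on the WT arrays. The WT arrays enclosed the C3aR-/- arrays, and the brightest WT array was 2.78 times the dimmest, beside 1.62 times in C3aR-/-. The log2 change of 0.26 (SE 0.39, 95% interval -0.70 to 1.21) had a limma adjusted p of 0.684. It depended on single arrays, with -0.07 without WT replicate 1 (adjusted p 0.913), 0.67 without WT replicate 3 (adjusted p 0.170) and 0.08 without C3aR-/- replicate 1 (adjusted p 0.923), all by limma.

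Slc22a7 and Slc22a19 had the same kind of spread in WT. Slc22a7 encodes OAT2, a carrier of organic anions and nucleotides, and its probe lies at mm9 chr17:46569272-46569331. Its log2 levels were 4.23, 3.84 and 4.29 on the C3aR-/- arrays, against 3.32, 3.68 and 4.59 on the WT arrays. The C3aR-/- values fell inside the WT range, in which replicate 3 was 2.41 times replicate 1. The log2 change was 0.25 (SE 0.33, 95% interval -0.55 to 1.06) with a limma adjusted p of 0.631, and it was -0.02 without WT replicate 1 (adjusted p 0.978) and 0.62 without WT replicate 3 (adjusted p 0.115). Slc22a19 encodes OAT5, known from rodents as an apical carrier of sulfated steroids and other anions. Its probe 1 had log2 levels of 0.81, 0.73 and 0.53 on the C3aR-/- arrays, against 0.38, 0.51 and 1.44 on the WT arrays. WT replicate 3 was the highest of all 6 and WT replicate 1 the lowest. The log2 change was -0.09 (SE 0.28, 95% interval -0.78 to 0.60) with a limma adjusted p of 0.854, and 0.24 without WT replicate 3 (adjusted p 0.230). Slc22a19 probe 2 (mm9 chr19:7757092-7757151) was not well above background on any of the 6 arrays and was not tested.

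Slc22a30 is a member known from rodents, and its 3 probes did not give 1 direction. Probe 1 had log2 levels of 4.79, 4.87 and 4.90 on the C3aR-/- arrays, against 5.20, 5.06 and 4.90 on the WT arrays. The highest C3aR-/- array and the lowest WT array were equal at this rounding, and the log2 change was -0.20 (SE 0.09, 95% interval -0.43 to 0.02) with a limma adjusted p of 0.194. Probe 2 had log2 levels of 4.56, 4.52 and 4.71 on the C3aR-/- arrays, against 3.68, 4.95 and 4.81 on the WT arrays. WT replicate 1 lay far below the other 5 arrays, so the log2 change was 0.12 (SE 0.33, limma adjusted p 0.832) with it and -0.28 (limma adjusted p 0.157) without it. Probe 3 (mm9 chr19:8417813-8417872), placed by the array files on a predicted transcript variant, had log2 levels of 1.23, 1.12 and 1.14 on the C3aR-/- arrays, against 1.71, 1.46 and 1.33 on the WT arrays. The genotypes did not overlap for probe 3, and its log2 change was -0.33 (SE 0.11, 95% interval -0.60 to -0.07), a fold of 0.793, with an unadjusted limma p of 0.0221 and an adjusted p of 0.0999. The relative Slc22a28, whose probe is nearly the same sequence as probe 2, fell: its log2 levels were 4.29, 4.29 and 4.30 on the C3aR-/- arrays, against 4.64, 4.62 and 4.54 on the WT arrays. This probe is annotated to Slc22a30 as well, so the call cannot be assigned to 1 of the 2 genes. Its log2 change was -0.31 (SE 0.06) with a limma adjusted p of 0.0318, and its other probe gave -0.30 (adjusted p 0.0637). The Slc22a28 call was lost in 9 of 17 other settings, each left-out array among them, with a highest limma adjusted p of 0.104.

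**Figure D2:**
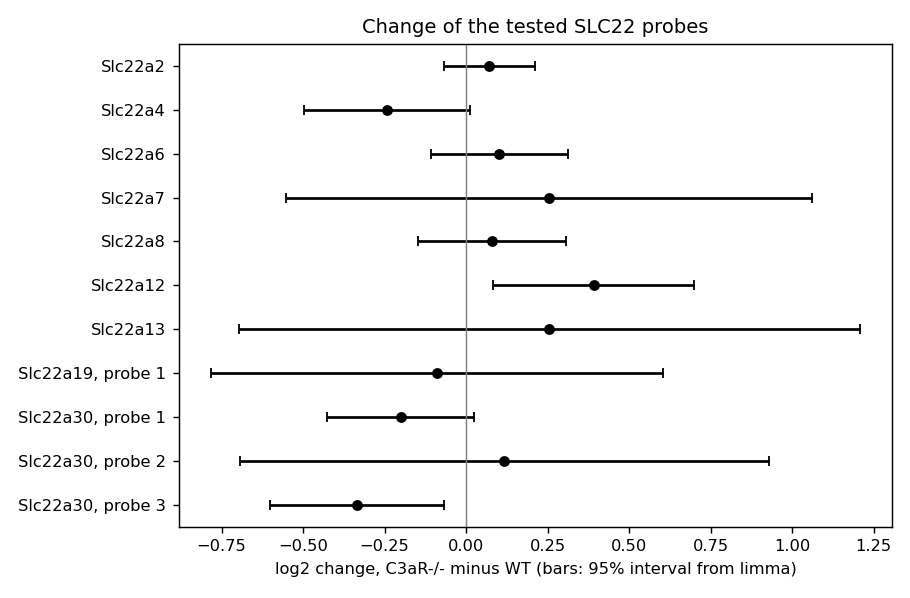
Points show the log2 change, C3aR-/- minus WT, of each tested probe, and bars its 95% interval from limma. The intervals of Slc22a12 and Slc22a30 probe 3 lie on 1 side of 0, and those of Slc22a7, Slc22a13, Slc22a19 probe 1 and Slc22a30 probe 2 are the widest.

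The members differed in how far arrays of 1 genotype lay apart. The pooled SD within genotypes was in the top 10% of all tested probes (above 0.344 on the log2 scale, beside a median of 0.130) for 4 of the 11: Slc22a7 at percentile 96.1, Slc22a13 at 97.5, Slc22a19 probe 1 at 94.1 and Slc22a30 probe 2 at 96.2. The spread of these 4 lay mainly in WT, where the SDs were 0.65, 0.75, 0.58 and 0.69, beside 0.24, 0.35, 0.14 and 0.10 in C3aR-/-. WT replicate 1 was the lowest and WT replicate 3 the highest WT array for 4 of the 11 (Slc22a2, Slc22a7, Slc22a13 and Slc22a19 probe 1), against 13.4% of all tested probes, and Slc22a2 did so within a range of 0.02. In C3aR-/-, replicate 1 was the highest and replicate 3 the lowest for Slc22a13 and Slc22a19 probe 1, while Slc22a7 had its lowest value in replicate 2. The 4 probes therefore shared a low WT replicate 1 but did not follow 1 common order. For Slc22a30 the low value was seen at probe 2 alone, since WT replicate 1 was the highest WT array at probes 1 and 3 (5.20 and 1.71). It was also the highest WT array at the Slc22a28 probe that is nearly the same sequence as probe 2 (4.64).

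Regulators that also varied between arrays of 1 genotype are given beside this spread, and their part in it was not tested. Bcl6 and Egr1 were chosen after their values were seen, so no conclusion is drawn from how they stand beside the 4 wide probes. Prlr belonged to the list of regulators below. It was neither called nor among the uncalled genes of largest change, so the rule for naming list genes did not choose it. Prlr, the prolactin receptor, had log2 levels of 0.52, -0.45 and -1.20 on the C3aR-/- arrays, against -1.33, -0.43 and -0.13 on the WT arrays (limma adjusted p 0.759). Within each genotype its arrays stood, at all 3 Prlr probes, in the same order as for Slc22a13 and Slc22a19 probe 1. Bcl6, a transcriptional repressor, had log2 levels of 1.76, 2.98 and 2.61 on the C3aR-/- arrays, against 4.33, 1.26 and 1.70 on the WT arrays at its brightest probe (limma adjusted p 0.988). WT replicate 1, the array lowest for the 4 wide probes, was the highest for Bcl6, and the other Bcl6 probe was also highest there, at -0.22. On the C3aR-/- arrays the Bcl6 probes differed, since that other probe had -3.38, -4.44 and -3.02 and so was lowest where the brightest was highest. Its log2 change was -1.63, beside 0.02 at the brightest. Egr1, an immediate early transcription factor, had log2 levels of -2.24, -2.37 and -0.72 on the C3aR-/- arrays, against -0.90, -0.79 and 4.34 on the WT arrays (limma adjusted p 0.263). WT replicate 3, where Slc22a7, Slc22a13 and Slc22a19 probe 1 peaked, stood far above the others for Egr1.

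**Figure D3:**
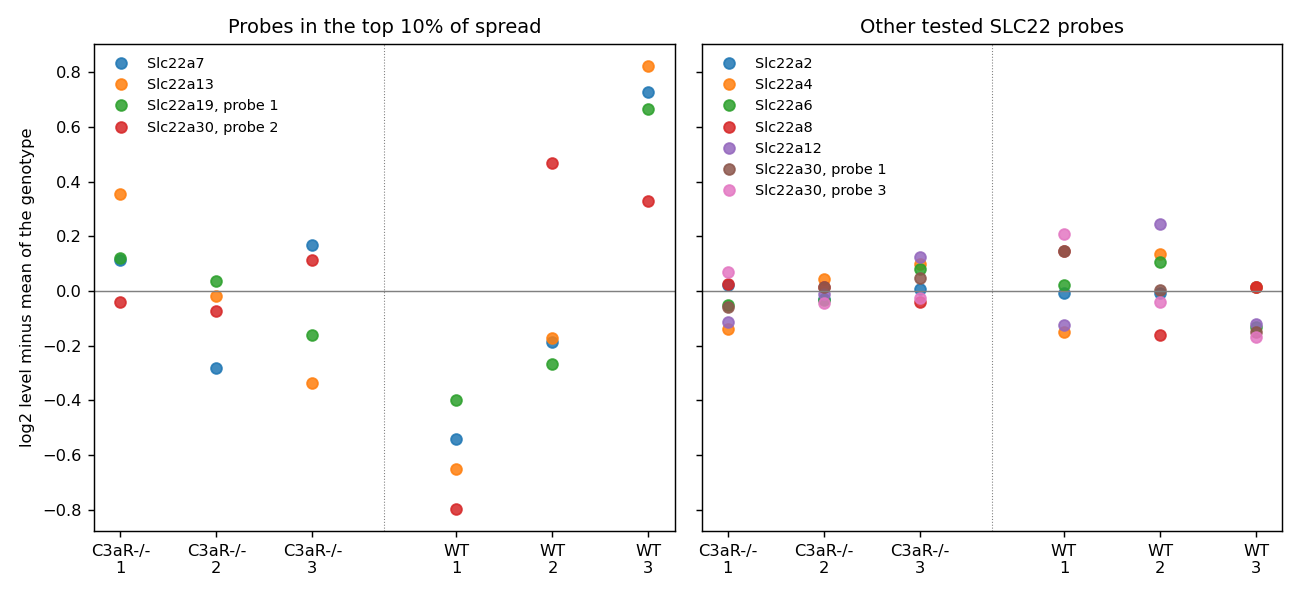
Points show each array's log2 level minus the mean of its genotype, for the 4 probes in the top 10% of spread on the left and the other 7 tested probes on the right, on a shared vertical axis. WT replicate 1 lies below the WT mean for all 4 probes on the left, and WT replicate 3 above it, while the points on the right lie closer to 0 than those.

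Related genes of organic ion and urate handling were counted by their brightest probe. Of 59 tested genes in 5 lists, 9 rose and 3 fell in C3aR-/- cortex by limma with an adjusted p under 0.05, beside 12.3% of all 20490 genes (5.95% higher and 6.33% lower). This count of 12 was 7, 5 and 4 without C3aR-/- replicate 1, 2 and 3, and 5 and 4 without WT replicate 1 and 2. The 0 called among the members and the calls among these genes are counts of unequal sets and were not tested against each other.

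Among 11 tested of the 15 listed other Slc22 genes, 2 rose and 1 fell, with a median log2 change of 0.15 beside 0.02 for all genes. Slc22a5, the gene of the carnitine carrier OCTN2, had log2 levels of 5.50, 5.49 and 5.38 on the C3aR-/- arrays, against 4.94, 4.98 and 4.99 on the WT arrays, a log2 change of 0.49 (SE 0.06, limma adjusted p 0.0139). Slc22a21, the gene of the related carnitine carrier OCTN3, had 0.90, 0.99 and 0.81 on the C3aR-/- arrays, against 0.30, 0.26 and 0.33 on the WT arrays, a log2 change of 0.60 (SE 0.07, limma adjusted p 0.0111). Neither overlapped between genotypes. The Slc22a5 call was lost without C3aR-/- replicate 2, WT replicate 1 or WT replicate 2 and with a replicate block, its limma adjusted p reaching 0.0623 with the block, and the Slc22a21 call with the block alone (0.0572). The Slc22a21 probe and a second Slc22a5 probe, which had a log2 change of 0.84, aligned with 54 of 55 bases identical, so their signals cannot be told apart, while the brightest Slc22a5 probe is separate from them. The third called gene was Slc22a28, which fell as given above. Slc22a29 (0.60, adjusted p 0.162) and Slc22a26 (-0.35, adjusted p 0.572) had the largest log2 changes that limma did not call. That of Slc22a26 rested on WT replicate 3, at -0.23 beside -1.60 and -1.64 on the other WT arrays, and was 0.11 without it. Slc22a14, Slc22a16 and Slc22a20 were not well above background on any array.

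Carriers that work beside the SLC22 proteins moved in a few cases. Of 10 tested genes of apical efflux, 1 rose, with a median log2 change of 0.10. It was Slc17a4, which encodes an organic anion carrier of the SLC17 phosphate transporter family, at -2.14, -1.82 and -2.05 on the C3aR-/- arrays, against -3.70, -3.64 and -3.64 on the WT arrays. Its log2 change was 1.66 (SE 0.10), a fold of 3.16, with a limma adjusted p of 0.00248, and the call held in all 17 other settings. With normexp background correction the log2 change was 0.93. The efflux pump genes Abcb1a (log2 change 0.90, adjusted p 0.057) and Abcb1b (0.58, adjusted p 0.174) did not pass. Of 12 basolateral and sodium-coupled partners, 2 rose, with a median log2 change of 0.06. Slc5a12, the gene of a sodium-coupled lactate carrier, had 5.03, 4.90 and 5.01 on the C3aR-/- arrays, against 4.38, 4.22 and 4.15 on the WT arrays, a log2 change of 0.73 (SE 0.08, limma adjusted p 0.0103) that was called in all 17 other settings. Slc13a2, the gene of the sodium-dicarboxylate carrier NaDC1, had 3.03, 3.05 and 3.09 on the C3aR-/- arrays, against 2.38, 2.26 and 2.53 on the WT arrays, a log2 change of 0.67 (SE 0.09, limma adjusted p 0.0131) whose adjusted p was 0.0584 without C3aR-/- replicate 3 and 0.0512 with the block. For all 3 genes every C3aR-/- array lay above every WT array. Slco1a4 (0.55, adjusted p 0.165) and Slc5a8 (0.38, adjusted p 0.0649) were not called by limma.

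Of 17 scaffolds, transcription factors and hormone receptors, 4 rose and 1 fell, with a median log2 change of 0.13. Hnf4g, a nuclear receptor gene, had log2 levels of -2.28, -2.50 and -2.30 on the C3aR-/- arrays, against -3.40, -3.03 and -3.05 on the WT arrays, a log2 change of 0.80 (SE 0.12, limma adjusted p 0.0199). The PDZ scaffold gene Slc9a3r2 rose by 0.52 (limma adjusted p 0.0192), with 0.35 at its other probe. Both calls were lost with 1 array left out, Hnf4g without C3aR-/- replicate 1 or 3 or WT replicate 2 and Slc9a3r2 without C3aR-/- replicate 2 or 3 or WT replicate 1 or 2, and over all settings their limma adjusted p-values reached 0.075 and 0.0654. The calls of Ghr, Ppara and Slc9a3r1 rested on 1 probe each. The growth hormone receptor gene Ghr rose by 0.42 (limma adjusted p 0.022), with log2 changes of 0.14 and -0.04 at its other probes. The fatty acid receptor gene Ppara rose by 0.57 (limma adjusted p 0.0406), with -0.00 at its other probe. The scaffold gene Slc9a3r1 had a log2 change of -0.36 (limma adjusted p 0.0404), with 0.12 at its other probe. The Ghr call was lost when any 1 array other than C3aR-/- replicate 1 was left out, and those of Ppara and Slc9a3r1 when any 1 of the 6 was. Over all settings the highest limma adjusted p was 0.239 for Ghr, 0.208 for Ppara and 0.395 for Slc9a3r1. Nr1i2, a xenobiotic receptor gene, had a log2 change of -0.43 (adjusted p 0.321) and was not called by limma. Of 9 tested genes of purine breakdown and salvage, 0 rose and 1 fell, with a median log2 change of 0.07. The salvage enzyme gene Hprt had a log2 change of -0.26 (limma adjusted p 0.0461) that was lost when any 1 of the 6 arrays was left out (highest adjusted p 0.123), and Nt5e (-0.43, adjusted p 0.112) and Urah (-0.32, adjusted p 0.0604) were not called. Uox, the gene of the enzyme that breaks down urate in mice, was not well above background on any array, nor was Urad.

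**Figure D4:**
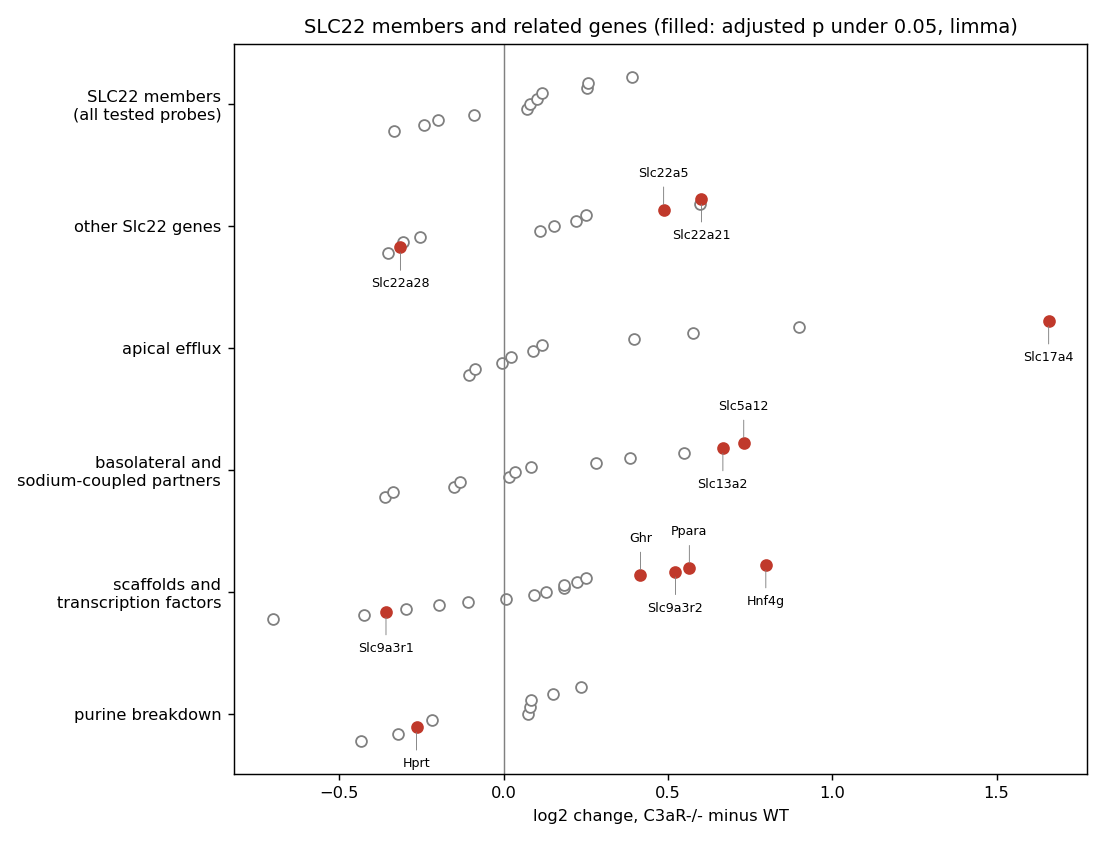
Each row is the set of tested SLC22 probes or a list of related genes by brightest probe, the horizontal axis is the log2 change, C3aR-/- minus WT, and filled red points have a limma adjusted p under 0.05 and are named. The SLC22 row has no filled point and lies between -0.33 and 0.39, and Slc17a4 at 1.66 lies farthest from 0.

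Levels of cell type markers, those of the proximal tubule among them, are given beside these results, and their part in them was not tested. In bulk cortex, fewer cells of a type and less RNA per cell cannot be told apart. The counts of calls below stand beside 12.3% of all genes called by brightest probe (5.95% higher and 6.33% lower), and the lists are short. Of 15 proximal tubule markers, 1 rose (Slc5a2, the glucose carrier SGLT2 gene, 0.34, limma adjusted p 0.0405) and 13 had a positive change, with a median log2 change of 0.23. Their summed linear level relative to the 75th percentile was 1421 to 1558 on the C3aR-/- arrays, against 1229 to 1291 on the WT arrays. The sums of the genotypes did not overlap for this list, and neither did those of the next list or of the podocyte markers. Of single tested probes, 39.6% did not overlap, and no such share was counted for sums. Each sum adds levels of different probes, so its brightest probes weigh most, and sums were taken with 75th percentile scaling alone. Of 12 markers of the thick limb, distal tubule and collecting duct, 2 rose and 2 fell, and their summed level was 344 to 362 on the C3aR-/- arrays, against 312 to 330 on the WT arrays. Of 5 podocyte markers 1 rose, and the sum was 20.9 to 24.2 in C3aR-/- cortex, against 16.7 to 20.2 in WT cortex. Of 8 endothelial and stromal markers, 2 rose and 1 fell, and the sum was 44.2 to 49.3 in C3aR-/- cortex, against 44.7 to 54.3 in WT cortex. Of 7 tested immune markers 0 rose and 2 fell, and the sum was 8.19 to 16.2 in C3aR-/- cortex, against 12.2 to 13.5 in WT cortex, while Cd79a was not well above background. Of 3 tested liver markers 0 changed, at 1.47 to 1.55 in C3aR-/- cortex, against 1.55 to 1.56 in WT cortex, and Apoa1 was not well above background.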

How the data were processed

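Cy3-labelled RNA from 0.2 µg per sample was hybridised to 1-colour Agilent arrays. Per the file headers, Feature Extraction 10.7.1.1 gave each spot a background-subtracted intensity (the processed signal), a mean and a background intensity, and flags. Coordinates are those of the array files (mm9). A deposited log2 table of the same arrays had equal sorted columns to within 0.000903 and a median of 5.38 per column. It correlated with the scanner values at 0.995 to 0.996. Its centring and normalization are not given in the sources used here, and it served as an alternative only.

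Control spots and outlier spots were left out, log2 processed signal minus each array's 75th percentile was averaged per probe, and 106 probes had an array with no unflagged spot. A probe was tested if every array of either genotype put it well above background, which held for 30931. The test was two-sided, by lmFit and eBayes of limma 3.58.1 (R 4.3.3), and p-values were adjusted over the tested probes by Benjamini-Hochberg. The number of arrays limits the precision. Gene symbols were updated by accession through a RefSeq table, which matched 32994 of 56605 probes, except for the members, which were taken by the name in the array files.

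The members and lists were chosen with earlier results of these data known. The text names all members, of each list up to 6 called genes by smallest p and up to 2 uncalled genes of largest change, and C3ar1, except that 1 uncalled gene is not reported here. Genes with a pattern most like a called member would also have been named, but no member was called. Deviations from the genotype means correlated at 0.043, 0.0077 and -0.060 between arrays of equal number, so replicate numbers were not taken as pairs.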

Additional observations from a re-analysis of the deposited data

How the results depend on the processing

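The count of changed member probes was 0 under all 17 other settings, and the log2 changes of Slc22a2, Slc22a4, Slc22a12 and Slc22a30 probes 1 and 3 kept their sign throughout, with 0.00 as the lowest for Slc22a2. Those of Slc22a6, Slc22a7, Slc22a8, Slc22a13 and Slc22a19 probe 1 changed sign in 1 setting each, and that of Slc22a30 probe 2 in 2. Over all tested probes 3612 were called. Without a filter on dim probes, which tested 56499 probes, 927 were called, and with the mean of a gene's probes, which tested 20490 genes, 2327. With the replicate number as a replicate block, which takes up residual degrees of freedom, 594 were called, and leaving out 1 array gave 598 to 1886. The remaining settings gave 2931 to 4890. Of the calls, 53.0% were higher in C3aR-/-, against 67.6% with arrays scaled on their median (2661 higher and 1274 lower), 42.2% without the filter, 40.1% with the block, 41.4% without C3aR-/- replicate 1, 37.0% without C3aR-/- replicate 3 (221 higher and 377 lower) and 41.1% without WT replicate 2. Of the related genes 12 were called, against 6 without the filter, 2 with the replicate block (Slc17a4 and Slc5a12) and 4 to 8 without 1 array, where the fewer samples or more probes are part of the setting. The other settings gave 10 to 18, and with median scaling 10 rose and 0 fell, so the falls of Slc22a28, Slc9a3r1 and Hprt were not called there, and they were lost in 9, 10 and 9 of 17 settings. The 3 arrays a genotype, on separate slides, limit the precision of every value.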
